A study of Mus musculus with 16 samples.

Results

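The HoxC cluster holds 9 Hoxc genes on mouse chromosome 15, and the genes on both sides of it were compared here between the ectoderm and the mesoderm of the forelimb tip. A gene of the deposited count table was kept when it started between 102100000 and 104100000 on chromosome 15 (build mm10) and had at least 10 counts summed over the 16 libraries. Genes with a Hox or Krt name, Hotair, Rarg, Sp7 and Itgb7 were left out. Of 89 genes in the window, 13 were left out by name and 36 were under the minimum (23 of them without any count), so that 40 neighbours were kept of 53800 genes in the table. There were 25 neighbours on the side of Hoxc13 and 15 on the side of Hoxc4, and 34 of the 40 are annotated as protein-coding. The filter on low counts left 31 of the 40 for testing, 19 on the Hoxc13 side and 12 on the Hoxc4 side.

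The libraries come from mouse embryos of the B6 strain, and the labels name no mutation and no treatment. Ectoderm and mesoderm of the distal forelimb were taken on 4 days of development, E9.5 to E12.5 in steps of 1 day, which gives 8 groups of 2 libraries. Within a stage, libraries of both layers that carry one replicate number share 1 batch of embryos, and the RNA of the first and the second replicates was purified with different kits. The layers were parted with trypsin and forceps, and each library is bulk RNA, so fewer cells of a type and less RNA per cell cannot be told apart in any result below.

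Hox genes encode homeodomain transcription factors that give cells their position along the body and limb axes. In the limb, the genes of the HoxA and HoxD clusters pattern the mesoderm, while Hoxc13 is known for its part in nails and hair, which are made by ectoderm. A distant enhancer can act on several genes of one stretch of chromosome or be held to a few of them, and the neighbours of a cluster are where such sharing would be measured as RNA. The comparison asks whether neighbours share the ectoderm pattern of the Hoxc genes.

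Total counts ran from 10005867 to 30438214 per library. The markers of surface epithelium (Epcam, Trp63, Cdh1 and 5 others) were called higher in ectoderm for 8 of 8 genes, and their summed level was 2106 to 7129 CPM in ectoderm against 3.84 to 78.1 CPM in mesoderm. CPM are the usual library-scaled counts, scaled here by the effective library sizes of edgeR. Markers of limb mesenchyme were called lower in ectoderm for 6 of 8 genes, with a summed level of 699 to 2457 CPM in ectoderm against 1807 to 6527 CPM in mesoderm. Col1a2, a collagen chain on that list, was higher in ectoderm at E9.5 (715 and 305 CPM against 165 and 92.4 CPM). Within embryo batches it was also higher there at E10.5 (992 and 621 CPM against 879 and 470 CPM) and E11.5 (1430 and 830 CPM against 1038 and 537 CPM). At E12.5 it was lower. Pdgfra, on the same list, was higher in ectoderm at E10.5 (441 and 491 CPM against 217 and 212.5 CPM) and lower at E9.5 and E12.5. The 5 transcription factors of the list (Prrx1, Prrx2, Twist1, Twist2 and Lhx9), grouped after their values were seen, were each called lower in ectoderm. Their sum was 1201 to 2052 CPM in mesoderm, 546 CPM in the first ectoderm replicate of E11.5 and 65.1 to 172 CPM in the other 7 ectoderm libraries. By this sum the first ectoderm replicate of E11.5 stands apart. Pdgfra does not set it apart, with 169 CPM in that library and 352 CPM in the second ectoderm replicate of E11.5.

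The Hoxc genes set the pattern. Hoxc13, the gene at one end of the cluster, was at 0.95 and 1.87 CPM in the 2 ectoderm libraries of E9.5 and at 124 and 104 CPM in those of E12.5. In mesoderm it lay between 0 and 1.15 CPM in all 8 libraries. From E10.5 to E12.5 each of the 9 Hoxc genes was called higher in ectoderm, against 4 of 9 at E9.5. A gene is called here at an adjusted p under 0.05 (edgeR quasi-likelihood test, Benjamini-Hochberg over 15501 genes). The median log2 difference, ectoderm minus mesoderm, of the 9 genes was 1.02, 6.16, 5.99 and 9.89 from E9.5 to E12.5. The first of these takes Hoxc11 and Hoxc12, which had no counts at E9.5, as 0, and over the 7 genes with counts at E9.5 the median was 3.58.

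None of the 31 tested neighbours shared that pattern, which was defined as a call higher in ectoderm at each stage from E10.5 to E12.5 together with a layer difference called as growing from E9.5 to E12.5. The pattern held for 5 of the 9 Hoxc genes (Hoxc4, Hoxc5, Hoxc6, Hoxc8 and Hoxc9) and for 226 of the 15501 tested genes (1.46%). At that share a count of 0 in 31 genes is near the background. In this edgeR fit the definition misses 4 Hoxc genes. Hoxc11 and Hoxc12 had no counts at E9.5 in either layer, and Hoxc10 had none in mesoderm at E9.5 or E12.5. Their growth therefore had no usable standard error in edgeR, and for Hoxc13 the adjusted p of the growth was 0.279 (edgeR). With a fold threshold of 2 in edgeR the pattern held for 4 Hoxc genes. Under DESeq2 it held for all 9, beside 328 of the 15501 tested genes. Without the condition on growth, 2 of 31 neighbours, Spryd3 and Zfp385a, were called higher in ectoderm at the last 3 stages in the main edgeR fit, against 9.48% of all tested genes. A block for the embryo batch gave 3 neighbours, Spryd3, Calcoco1 and Zfp385a, beside 15.2% of all tested genes. Spryd3 and Zfp385a were called at E9.5 too, and 7.06% of all tested genes were called higher at all 4 stages. The count of 2 fell to 1 or 0 when any of 14 of the 16 libraries was left out (all but the second ectoderm and the first mesoderm replicate of E10.5). The count of 0 for the whole pattern was found under every alternative tried.

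Over the average of the 4 stages, 18 of the 31 neighbours were called, 9 of them higher in ectoderm and 9 lower, beside 45.7% of all tested genes (24.3% higher and 21.4% lower). A block for the embryo batch gave 14 higher and 11 lower, beside 65.9% of all tested genes. Without the first ectoderm replicate of E11.5 there were 6 higher and 10 lower, beside 45.4% of all tested genes. The median log2 difference was 0.14 over the neighbours, 0.01 over all tested genes and 6.89 over the 7 Hoxc genes with counts at every stage. Over all 9 Hoxc genes it was 5.68, the fitted value of Hoxc12, whose average has no usable standard error. For 21 of the 31 neighbours the log2 difference lay between -1 and 1. A call with at least a 2-fold difference was made for 10 neighbours, beside 23.6% of all tested genes. Spryd3, Gm9918, Calcoco1, Zfp385a, 5730585A16Rik and Gm10830 were the ones higher in ectoderm, and Tns2, Nfe2, Itga5 and Nckap1l the ones lower. Under a test against a fold of 2 itself (glmTreat of edgeR) the 4 lower genes kept their call and the 6 higher genes did not.

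**Figure D1:**
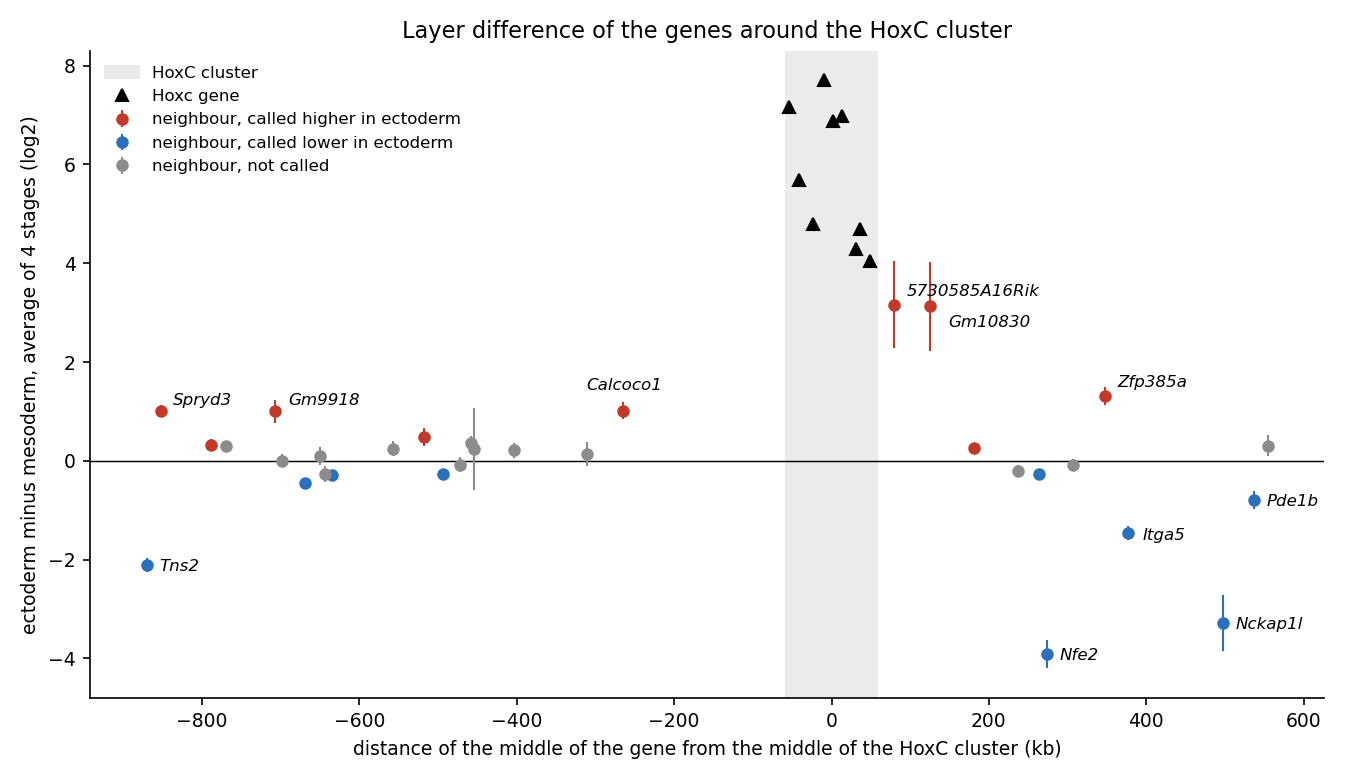
Log2 difference between ectoderm and mesoderm (vertical axis, edgeR, average of 4 stages) of the 31 tested neighbours (circles, bars show the standard error) and the 9 Hoxc genes (triangles), against the distance in kb of the middle of each gene from the middle of the cluster (horizontal axis). The Hoxc genes lie between 4.04 and 7.71 (Hoxc11 and Hoxc12 as fitted, without counts at E9.5), and every neighbour lies at 3.16 or below. Calls in both directions are found on both sides.

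The layer difference of the nearest protein-coding gene on each side was smaller than that of the Hoxc gene at that end. The cluster spans 115.8 kb (chr15:102921103-103036852), and the nearest protein-coding neighbours are Calcoco1, 198.9 kb beyond Hoxc13, and Smug1, 116.4 kb beyond Hoxc4. Hoxc13 had a log2 difference of 7.17 ± 0.29 (SE) and Calcoco1 one of 1.02 ± 0.17. Hoxc4 had 4.04 ± 0.29 and Smug1 0.25 ± 0.08. Between these lie the noncoding models 5730585A16Rik and Gm10830, with few counts and log2 differences of 3.16 ± 0.88 and 3.13 ± 0.90. Whether these differ from Hoxc4 was not tested.

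Of the tested neighbours 32.3%, 29.0%, 19.4% and 25.8% were called at single stages, in stage order. At E9.5, 6 neighbours were called higher in ectoderm and 4 lower, beside 13.1% and 8.29% of all tested genes (21.4% called in all). At E10.5 there were 4 higher and 5 lower, beside 16.2% and 10.2% (26.4% in all). At E11.5 there were 2 higher and 4 lower, beside 12.9% and 7.69% (20.6% in all). At E12.5 there were 2 higher and 6 lower, beside 13.3% and 13.2% (26.4% in all). A block for the embryo batch gave, in stage order, 7 higher and 6 lower (42.4% of all genes called), 6 and 10 (48.6%), 5 and 7 (40%), and 8 and 7 (45.7%). Tns2, Espl1, Nfe2 and Itga5 were called lower in ectoderm at each of the 4 stages, beside 3.53% of all tested genes. For Tns2 these calls were made without each library in turn. Itga5 lost its E9.5 call without the second ectoderm or the first mesoderm replicate of E9.5, and its E11.5 call without the same replicates of E11.5. Nfe2 lost its E9.5 call without the first ectoderm replicate of E9.5. Espl1 lost its E9.5 call without any of the 4 libraries of E9.5, its E11.5 call without any of the 4 of E11.5 but the first ectoderm replicate, and both with no filter on low counts.

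**Figure D2:**
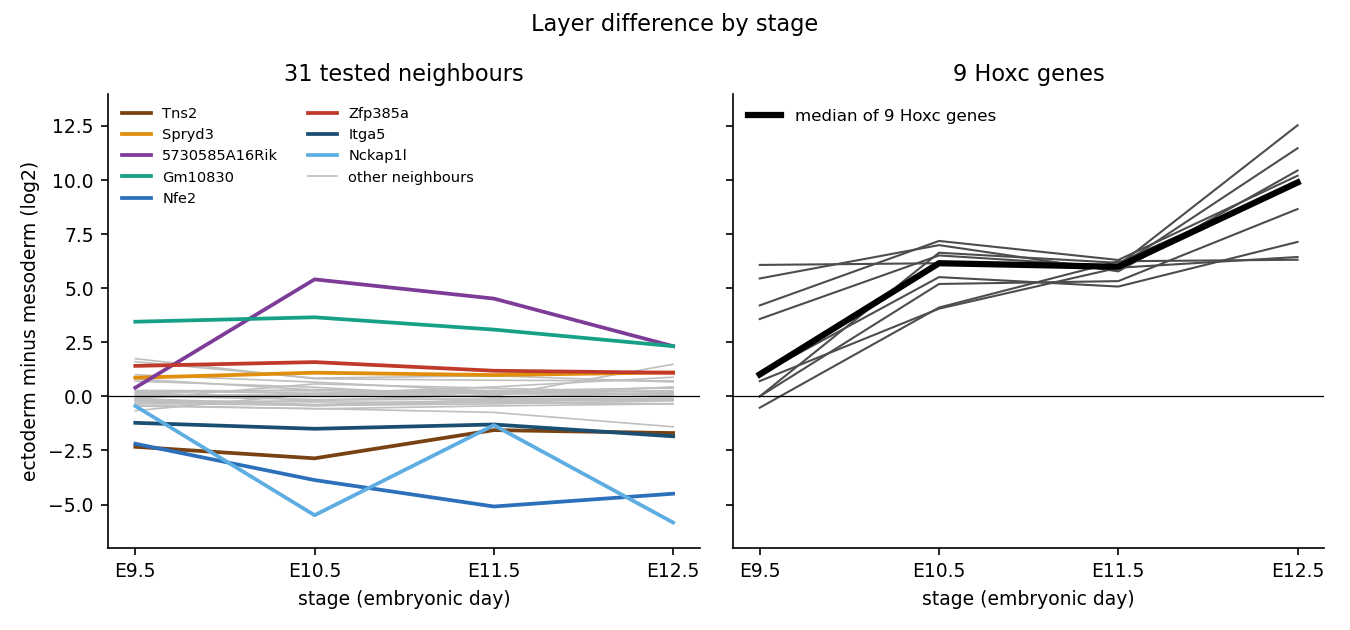
Log2 difference between ectoderm and mesoderm (vertical axis, edgeR) at each of the 4 stages (horizontal axis) for the 31 tested neighbours (left) and the 9 Hoxc genes with their median (right). The Hoxc lines end between 6.32 and 12.53 at E12.5, the neighbours between -5.83 and 2.32. A fitted value of a gene without counts in 1 layer depends on the prior count of the fit and is not a bound.

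The genes closest to the Hoxc pattern were 3 on the Hoxc4 side. By the root mean square difference of the 4 stage values from the Hoxc median, 5730585A16Rik came first (3.88), then Gm10830 (4.41) and Zfp385a (5.51). Spryd3 followed at 5.65. With the median over the Hoxc genes with counts, an alternative added after the data were seen, the order was the same and the distances were 4.18, 4.24, 5.61 and 5.81. This distance is over 4 stages of fitted log2 differences, and for the first 2 genes those rest on few counts. For scale, by the median of all 9 the Hoxc genes themselves lay at 0.571 to 2.855. Pfdn5, with log2 differences of only 0.03 to 0.25 at the 4 stages, lay at 6.47. Zfp385a and Spryd3 were thus nearer to such a gene than to the Hoxc genes.

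5730585A16Rik is a short unspliced transcript model of no known function that lies 21.4 kb beyond Hoxc4 (chr15:103058280-103059306, minus strand, 76 counts over all libraries). Its counts in the pairs of ectoderm libraries were, in stage order, 11 and 19, 1 and 7, 4 and 2, and 0 and 1. The mesoderm counts were 11 and 20 on the first of these days and 0 in the 6 libraries of the later stages. Both layers thus had the RNA at E9.5, and after that day only ectoderm libraries had counts. With mesoderm set to a floor of 3 counts over its 2 libraries, the CPM level was 4.43-fold higher in ectoderm at E10.5 and 1.95-fold higher at E11.5. The ectoderm counts behind these folds, 8 and 6, are taken as exact, so the folds are not lower bounds. At E12.5 both layers were at or under the floor. The average difference was called (log2 3.16 ± 0.88 SE, adjusted p = 0.0174, edgeR), but without the second ectoderm replicate of E12.5 no count was left at that stage and the average could not be fitted. The call at E10.5 (log2 5.41 ± 1.60 SE, adjusted p = 0.0373, edgeR) was lost with the embryo batch as a block (adjusted p = 0.0552) and without any of 7 libraries (the 6 ectoderm libraries of E9.5 to E11.5 save the first of E10.5, and both mesoderm libraries of E10.5), with adjusted p up to 0.268.

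Hoxc4, the nearest gene of the cluster, is given beside it. Its CPM in ectoderm were 27.8 and 26.5 at E9.5 and 5.31 and 11.7 at E12.5, and in mesoderm 36.1 and 41.8, then 0.621 and 0.955 on the next day, and 0.174 and 0 at the end. Like 5730585A16Rik, it was in both layers at E9.5 and low in mesoderm from E10.5 on. In ectoderm 5730585A16Rik fell from E9.5 to E12.5 (log2 -5.05 ± 1.19 SE, adjusted p = 0.0228, edgeR), and in mesoderm it fell too (adjusted p = 0.00901). The growth of its layer difference was not called (log2 1.92 ± 1.75 SE, adjusted p = 0.671, edgeR).

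Gm10830 and Gm28876 are a pair of long noncoding RNA models on opposite strands, 65.4 and 59.3 kb beyond Hoxc4. Gm10830 (chr15:103102237-103105069) had, in stage order, 10 and 14, 1 and 9, 1 and 1, and 0 and 1 counts in ectoderm. In mesoderm it had 2 and 1 counts at E9.5, 1 and 0 at E10.5, and none later. Unlike 5730585A16Rik it was mostly an ectoderm transcript from the first stage, when its level was 11.4-fold higher there (95% counting interval 3.47 to 59.3). Its average difference was called (log2 3.13 ± 0.90 SE, adjusted p = 0.0179, edgeR), but could not be fitted without the second ectoderm replicate of E12.5. The call at E9.5 was lost under DESeq2 (adjusted p = 0.144) and without 13 of the 16 libraries in turn.

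Gm28876 (chr15:103096151-103102111, 43 counts) did not pass the filter and was not tested. It had, in stage order, 3 and 21, 3 and 9, 0 and 2, and 0 and 0 counts in ectoderm, against 1 and 4 in mesoderm at E9.5 and none later. Its level was 6.85-fold higher in ectoderm at E9.5 (95% counting interval 2.56 to 23.0). At E10.5 it was 6.65-fold higher with mesoderm set to the floor of 3 counts, which is not a lower bound either. In ectoderm all 3 transcripts were lowest at E12.5, with 0 or 1 counts each, against 2 to 6 at E11.5. At E12.5 Hoxc13, Hoxc12 and Hoxc11 were highest. Hoxc4, Hoxc5, Hoxc6 and Hoxc8, towards the Hoxc4 end, were called lower in ectoderm at E12.5 than at E9.5. Their log2 changes were -1.68, -4.82, -2.66 and -3.19 (edgeR). Hoxc10 to Hoxc13 were called higher and Hoxc9 was not called. The second replicates hold most counts of Gm28876, and the part of the RNA kit in this was not tested.

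On the other side, between Calcoco1 and Hoxc13, lies a stretch without protein-coding genes that holds 1 neighbour, the long noncoding RNA AC124532.2 (named Gm36560 in GENCODE M21, 101.6 kb from Hoxc13, 28 counts, not tested). It had 10 and 7 counts in mesoderm at E10.5 and 1 and 2 in ectoderm, and no more than 2 counts in any other library. Its ectoderm level at E10.5 was 0.293 of the mesoderm level, with a 95% counting interval of 0.0551 to 1.01 that includes 1.

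Calcoco1, an autophagy receptor of the endoplasmic reticulum, is the nearest protein-coding gene beyond Hoxc13. Its CPM were 112 and 70.8 in ectoderm and 32.8 and 27.3 in mesoderm at E9.5, and 115 and 94.2 against 78.8 and 53.1 at E12.5. Ectoderm was higher in each of the 8 embryo batches, although the ranges over all stages overlap (70.8 to 115 CPM in ectoderm, 27.3 to 78.8 in mesoderm). The log2 difference was 1.60 ± 0.35 at E9.5 (adjusted p = 0.00704, edgeR), and 0.84, 0.95 and 0.67 at the later stages, where it was not called. In the fit blocked by embryo batch it was called at each of these too, with log2 differences of 0.88 ± 0.18, 1.01 ± 0.18 and 0.68 ± 0.17 (adjusted p = 0.00205, 0.00110 and 0.00793, edgeR). Its mesoderm level rose from E9.5 to E12.5 (log2 1.13 ± 0.35 SE, adjusted p = 0.0307, edgeR), while 5 Hoxc genes fell there. The call at E9.5 was lost without the first ectoderm or the second mesoderm replicate of E9.5, and that of the rise without 3 libraries (both mesoderm replicates of E9.5 and the first of E12.5). Atp5g2, a subunit of the mitochondrial ATP synthase, and Atf7, a transcription factor of the ATF family, are the next on this side. Neither was called, with log2 differences of 0.14 ± 0.24 and 0.21 ± 0.16, and both were called higher in the fit blocked by embryo batch (0.15 ± 0.05 and 0.22 ± 0.05).

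Smug1, a DNA repair glycosylase that removes uracil, is the nearest protein-coding gene beyond Hoxc4. It was at 27.5 and 29.1 CPM in ectoderm and 32.0 and 29.6 CPM in mesoderm at E9.5, and at 28.0 and 25.1 CPM against 17.5 and 18.1 at E10.5. At E9.5 the difference was not called, and ectoderm was higher by log2 0.58 ± 0.16 at E10.5 (adjusted p = 0.0181, edgeR). At E12.5 the values were 24.0 and 19.9 CPM against 20.8 and 18.1 CPM, and the difference was not called. Smug1 was also called at E11.5 in the fit blocked by embryo batch (log2 0.38 ± 0.13, adjusted p = 0.0337, edgeR). The call at E10.5 was lost with no filter on low counts (adjusted p = 0.379) and without the first ectoderm replicate or either mesoderm replicate of E10.5.

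Zfp385a was higher in ectoderm at every stage and the most abundant of the 6 neighbours higher there by at least 2-fold. It encodes a zinc finger protein, also known as Hzf, that binds RNA and the protein p53, and it lies 277 kb beyond Hoxc4 (chr15:103313895-103340093, minus strand). Its level in ectoderm was 113 CPM at the lowest, 165 at the median and 261 at the highest of the 8 libraries, against 49.3, 75.0 and 94.1 CPM in mesoderm. The ranges do not overlap, and ectoderm was higher in 8 of 8 embryo batches, at 197.8% to 306.6% of the mesoderm level. In stage order the log2 difference was 1.41, 1.58, 1.19 and 1.09, each with an SE of 0.37 (adjusted p = 0.0187, 0.00831, 0.0428 and 0.0493, edgeR). The last 2 calls are near the threshold and were lost under upper quartile scaling (adjusted p = 0.0513 and 0.0628). The E9.5 call was lost without the first ectoderm or either mesoderm replicate of E9.5, and the E10.5 call without the first ectoderm or the second mesoderm replicate of E10.5. The E11.5 call was lost without any library of E9.5, either ectoderm library of E11.5 or the second mesoderm library of E11.5 (adjusted p up to 0.269). The E12.5 call was lost without any library of E9.5 or E12.5 or either ectoderm library of E11.5 (adjusted p up to 0.284). With the embryo batch as a block all 4 were called. The average over stages was 1.32 ± 0.19 (adjusted p = 0.000111, edgeR) and was called without each library in turn.

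**Figure D3:**
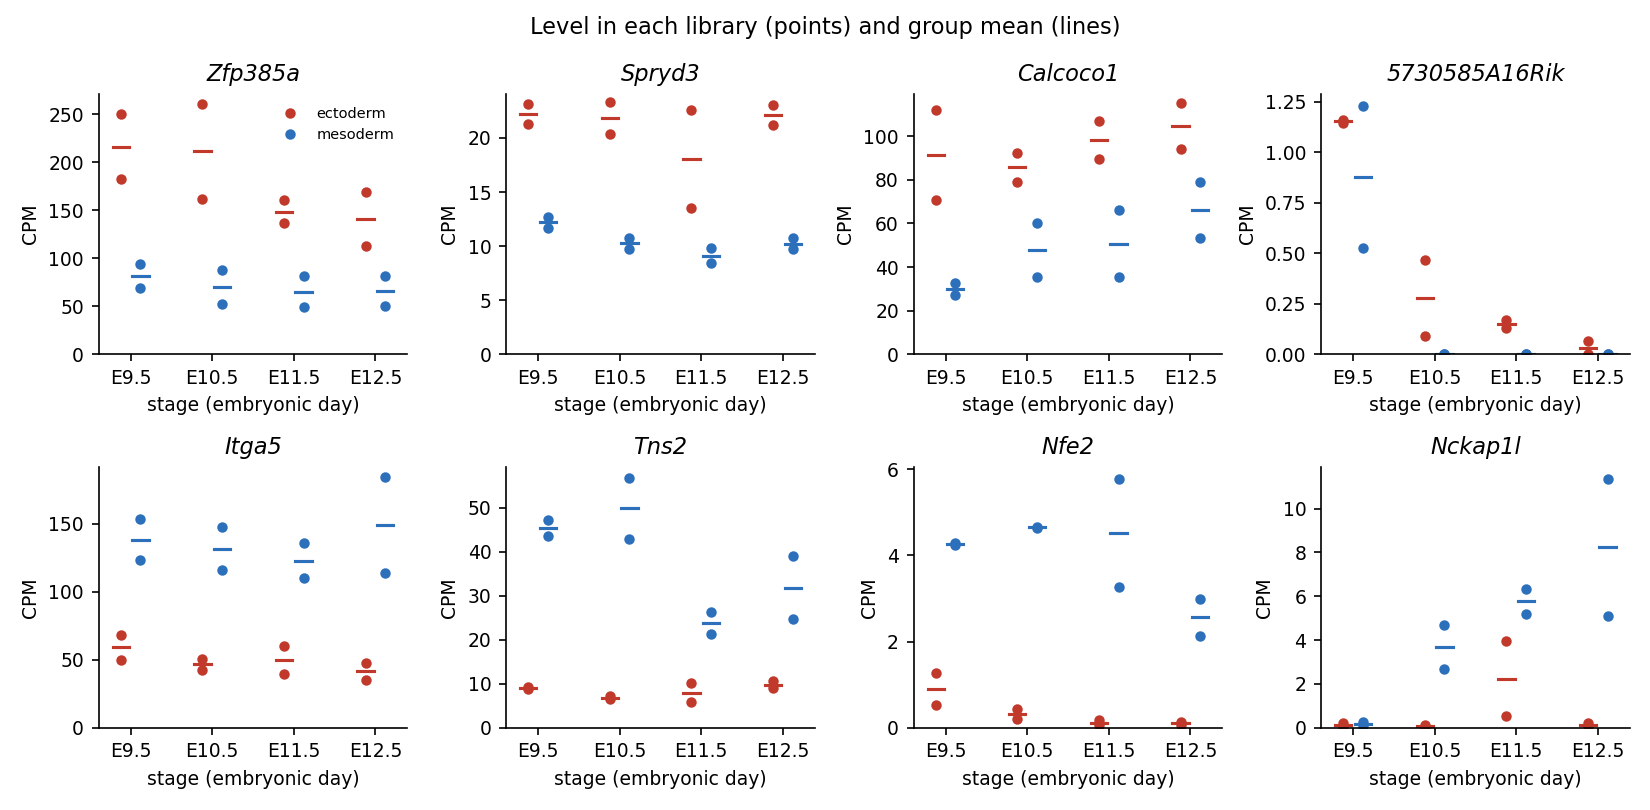
CPM (vertical axes, linear from 0) of 8 neighbours by stage (horizontal axes) in ectoderm (red) and mesoderm (blue), where points are libraries and short lines the mean of 2 libraries. Zfp385a and Spryd3 are higher in every ectoderm library than in every mesoderm library, and Itga5, Tns2 and Nfe2 lower, while 5730585A16Rik is at 0 in mesoderm after E9.5 and Nckap1l has 1 high ectoderm library at E11.5.

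The exons of Zfp385a were also used unequally in the layers. Counts per exon bin (a stretch of exon that no transcript border divides) were tested for bins used more in 1 layer than the rest of the gene (diffSpliceDGE of edgeR, Simes p for each gene). Of 28 neighbours with enough bin counts, 1 was called, beside 1.61% of the 12203 genes tested. The gene was Zfp385a, with an adjusted Simes p of 1.09e-19.

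GENCODE M21 gives Zfp385a 3 coding transcripts that start at different exons and share the exons from chr15:103320290-103320400 (bin 7) onwards, but for the last bases at the 3′ end. Zfp385a-201 starts at the most upstream exon (chr15:103340047-103340093, bin 11) and goes on to chr15:103333065-103333201 (bin 9), where all 137 bases are coding. Zfp385a-202 starts in between (bin 10) and uses bin 9 too. Zfp385a-203 starts downstream of both, at chr15:103323391-103323510 (bin 8), and so leaves out bins 9 to 11. The first coding bases of the transcripts from the upstream and the downstream exon are shown because they are the ends of the protein that differ, 5′ to 3′ on the coding strand, up to the first base shared by both, with the start codon in capitals.
Zfp385a-201: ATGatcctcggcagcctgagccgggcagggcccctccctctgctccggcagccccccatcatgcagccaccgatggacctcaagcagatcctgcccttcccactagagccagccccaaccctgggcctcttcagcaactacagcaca
Zfp385a-203: ATGgagccgcggccaccagggcctcgcagg
The start codon of Zfp385a-202 lies within the stretch of Zfp385a-201, in the same frame, and adds 87 coding bases before the shared exons, against 147 for Zfp385a-201 and 30 for Zfp385a-203.

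Bin 9 held 6.54 to 7.51% of the bin counts of Zfp385a in the 8 ectoderm libraries and 0.208 to 0.983% in the 8 mesoderm libraries. Bin 11 held 1.29 to 2.38% in ectoderm and 0 to 0.342% in mesoderm. Bin 8 went the other way, with 0.126 to 0.421% in ectoderm and 0.807 to 2.06% in mesoderm. None of these ranges overlap. In counts over 8 libraries, bin 9 had 2066 in ectoderm and 103 in mesoderm, bin 11 had 542 and 18, and bin 8 had 74 and 264. Relative to the other bins of the gene the log2 difference was 3.36 for bin 9, 4.14 for bin 11 and -2.82 for bin 8. Bin 10, the first exon of Zfp385a-202, had 4 counts in ectoderm and 9 in mesoderm, against the 542 and 18 of bin 11. Bin 10 was not tested.

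The difference was present at every stage. At E9.5 bin 9 held 7.27 and 7.18% in ectoderm and 0.565 and 0.208% in mesoderm, and at E12.5 it held 7.23 and 7.29% against 0.756 and 0.547%. The 7 bins downstream of bin 8 had log2 differences of -0.25 to 0.63, and none was called. The largest was that of bin 7, the first shared exon, with 6.34 to 9.35% in ectoderm and 3.74 to 6.73% in mesoderm (adjusted p over all bins = 0.474, edgeR). Bins 4 and 5 were lower in every ectoderm library than in every mesoderm library, by little (12.4 to 13.3% against 13.4 to 15.04% for bin 5). The gene was called in the fit with a block for the embryo batch, under a minimum of 10 counts in place of the filter, and without each library in turn.

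**Figure D4:**
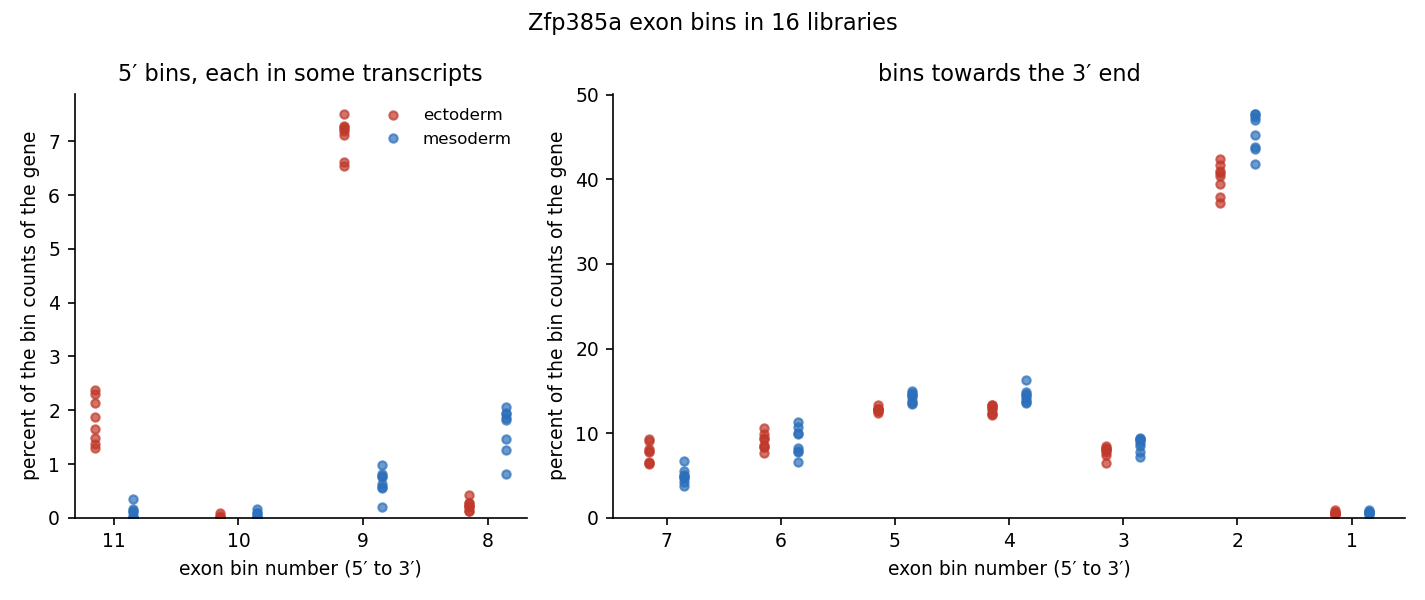
Percent of the bin counts of Zfp385a (vertical axes) in each exon bin (horizontal axes, numbered along the genome and drawn 5′ to 3′) for the 8 ectoderm (red) and 8 mesoderm (blue) libraries. Bins 9 and 11 are higher in every ectoderm library than in every mesoderm library and bin 8 is lower, while bin 10 stays near 0 in both layers.

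RefSeq lists 2 promoters for Zfp385a (build GRCm38.p6), 5.75 kb apart, and both are printed because the counts of their first exons differ. The sequences run 5′ to 3′ on the minus strand, from 250 bases before to 50 after the start, with GC boxes (GGGCGG, or CCGCCC on the other strand) in capitals. The first one is chr15:103340037-103340336, around the start of Zfp385a-201, and the second is chr15:103334289-103334588, around the start of Zfp385a-202. The first exon of the latter, bin 10, had only 4 counts in ectoderm and 9 in mesoderm. Neither promoter is around the start of Zfp385a-203, whose first exon (bin 8) had 74 counts in ectoderm and 264 in mesoderm.
Upstream promoter: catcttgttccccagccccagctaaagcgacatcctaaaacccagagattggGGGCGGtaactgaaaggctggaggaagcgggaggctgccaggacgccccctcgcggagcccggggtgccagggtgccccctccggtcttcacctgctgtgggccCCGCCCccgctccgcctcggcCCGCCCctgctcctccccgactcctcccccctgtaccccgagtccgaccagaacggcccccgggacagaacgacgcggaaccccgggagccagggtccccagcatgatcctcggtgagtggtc
Internal promoter: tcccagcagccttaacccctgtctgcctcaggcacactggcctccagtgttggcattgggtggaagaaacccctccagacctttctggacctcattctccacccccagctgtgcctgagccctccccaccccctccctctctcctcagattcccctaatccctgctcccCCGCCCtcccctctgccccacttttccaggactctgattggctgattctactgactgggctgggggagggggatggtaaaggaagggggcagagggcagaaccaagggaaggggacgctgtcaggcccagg
The upstream promoter has 3 GC boxes and 70.0% G and C, and the internal one 1 GC box and 62.3%, against a median of 52.7% over the 32851 promoters of the table. GC boxes were found in 35.7% of all promoters and in 28 of the 38 promoters of the 29 neighbours that matched (73.7%). These sets are not alike, since the neighbours passed a minimum of 10 counts and the promoters of the table were not limited to expressed genes. CCAAT (either strand) was found in 37.4% of all promoters and 39.5% of these, and TATAAA (either strand) in 13.6% and 5.26%. The 3 motifs do not contain one another. A match is a run of letters and not a measured binding site.

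A group of 11 neighbours, all tested, was put together by hand under roles on DNA and RNA, and binding by each member was not checked. Of these, 3 were called higher in ectoderm (Zfp385a, Prr13 and Smug1) and 3 lower (Nfe2, Hnrnpa1 and Pcbp2). The other 5 were not called (Sp1, Atf7, Zfp740, Cbx5 and Tarbp2). These shares are near the 24.3% higher and 21.4% lower of all tested genes. Hnrnpa1, a protein that packages and splices nuclear RNA, and Pcbp2, which binds runs of C in RNA, had the highest levels per length of all neighbours, with means of 766 and 461 FPKM (Cufflinks, per the submitters' processing notes). Pfdn5, a subunit of the prefoldin chaperone, followed with 150.5 FPKM and was not called (log2 0.10 ± 0.18 SE). Hnrnpa1 was lower in ectoderm in 8 of 8 batches, by log2 0.26 ± 0.09 (adjusted p = 0.0350, edgeR), and Pcbp2 by log2 0.27 ± 0.08 (adjusted p = 0.0212, edgeR). Both differences are small. The call of Hnrnpa1 was lost without any of 10 libraries (adjusted p up to 0.0928) and that of Pcbp2 without any of 6 (up to 0.0598). The calls of Prr13 and Smug1 were lost under upper quartile scaling, and that of Smug1 also with no filter (adjusted p = 0.425, edgeR). The call of Prr13 was lost without any of 10 libraries and that of Smug1 without any of 5.

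Sp1, the factor that binds GC boxes, had 149 CPM at the lowest, 224 at the median and 255 at the highest in ectoderm, and 125, 187 and 223 CPM in mesoderm. It was higher in ectoderm in 8 of 8 batches, but the log2 difference of 0.25 ± 0.15 was not called (adjusted p = 0.215, edgeR). Cbx5, the heterochromatin protein HP1 alpha, was lower in 8 of 8 batches and not called (log2 -0.20 ± 0.12, adjusted p = 0.178, edgeR). In the fit blocked by embryo batch Sp1, Atf7, Zfp740 and Tarbp2 were called higher and Cbx5 lower.

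Spryd3, a protein with a SPRY domain that lies 785 kb beyond Hoxc13, was the other neighbour called higher in ectoderm at all 4 stages. Its CPM in ectoderm were 13.5 at the lowest, 21.9 at the median and 23.4 at the highest, against 8.43, 10.2 and 12.7 in mesoderm. The layers do not overlap, and the lowest ectoderm value is that of the first replicate of E11.5, the library with the high sum of mesenchyme transcription factors. The part of mesenchyme cells in that value was not tested. Without that library the log2 difference at E11.5 was 1.25, against 0.99 with it. In stage order the log2 difference was 0.86, 1.09, 0.99 and 1.11, each with an SE of 0.23 (adjusted p = 0.0192, 0.00432, 0.0103 and 0.00366, edgeR). The E9.5 call was lost with no filter on low counts (adjusted p = 0.071, edgeR) and without any of the 4 libraries of E9.5. The E11.5 call was lost without the second ectoderm or the first mesoderm replicate of E11.5. Tns2, the next gene, on the other strand, was lower in ectoderm at every stage.

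Of 10 neighbours that act in signalling and adhesion, 7 were tested, none was called higher in ectoderm and 4 were called lower (Tns2, Itga5, Nckap1l and Pde1b), beside 24.3% and 21.4% of all tested genes. Tns2, a focal adhesion protein of the tensin family, was at 5.83, 8.92 and 10.7 CPM (lowest, median and highest) in ectoderm and 21.3, 41.0 and 56.7 CPM in mesoderm, without overlap. Its log2 difference was -2.11 ± 0.15 (adjusted p = 3.18e-07, edgeR). Itga5, the fibronectin receptor subunit, was at 35.4, 48.8 and 68.6 CPM in ectoderm and 109.8, 129.5 and 184 CPM in mesoderm, again without overlap. The average log2 difference was -1.47 ± 0.15 (adjusted p = 6.37e-06, edgeR). Pde1b, a calmodulin-dependent phosphodiesterase, was lower in ectoderm in 8 of 8 batches (log2 -0.79 ± 0.18, adjusted p = 0.00396, edgeR). Npff, Ppp1r1a and Map3k12 were not called.

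Nckap1l and Nfe2 belong to blood cells by what is known of them. Nckap1l is the blood-cell form of a subunit of the WAVE actin complex, and Nfe2 is a transcription factor of platelet and red cell precursors. Nfe2 had 43 counts in ectoderm and 639 in mesoderm over the 16 libraries, at 0.0660 to 1.27 CPM and 2.13 to 5.76 CPM respectively. Its log2 difference was -3.91 ± 0.29 (adjusted p = 5.53e-07, edgeR), the furthest of the tested neighbours below 0. In mesoderm its level stayed between 2.13 and 5.76 CPM over all stages. In ectoderm it fell from 0.527 and 1.27 CPM at E9.5 to 0.137 and 0.0660 CPM at E12.5 (log2 -3.05 ± 0.66 SE, adjusted p = 0.00906, edgeR).

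The red cell list (Hbb-y, Hba-x and 6 others) was called lower in ectoderm for 8 of 8 genes, with a summed level of 11.3 to 714 CPM in ectoderm against 2074 to 4872 CPM in mesoderm. The platelet list was called lower for 4 of its 4 tested genes, at 0.443 to 1.33 CPM in ectoderm against 8.12 to 40.3 CPM in mesoderm, and Ppbp, one of its defining genes, was at 0 in 7 of 8 ectoderm libraries. The ectoderm library with the highest red cell sum, the second replicate of E9.5, is also the one with the highest Nfe2. The part of these cells in the values of Nfe2 was not tested.

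Nckap1l was at 0.211 and 0.0603 CPM in ectoderm and 0.0955 and 0.246 CPM in mesoderm at E9.5, and at 0.0915 and 0.198 CPM against 11.3 and 5.12 CPM at E12.5. Its mesoderm level rose (log2 5.59 with an SE of 1.002 from E9.5 to E12.5, adjusted p = 0.00181, edgeR), and its ectoderm level was not called as changed. The exception is the first ectoderm replicate of E11.5 with 93 counts (3.96 CPM), where the other 7 ectoderm libraries had 0 to 8 counts. In the same library the macrophage list (Csf1r, Cx3cr1 and 6 others) summed to 25.0 CPM, against 1.48 to 5.49 CPM in the other 7, and its mesenchyme transcription factors summed to 546 CPM. The macrophage list was called lower in ectoderm for 6 of 8 genes. Macrophage markers in mesoderm went from 3.15 and 2.95 CPM at E9.5 to 142 and 53.8 CPM at E12.5. The part of macrophages and mesenchyme cells in the values of Nckap1l was not tested. At E11.5 the difference was not called (log2 -1.33), but it was in the fit blocked by embryo batch (log2 -1.59 ± 0.54, adjusted p = 0.0377, edgeR). Without that library the average log2 difference of Nckap1l was -3.85, against -3.27 ± 0.57 with it (adjusted p = 0.000538, edgeR).

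Of 11 neighbours with roles in cell division, metabolism or upkeep of the cell, 10 were tested. Spryd3, Calcoco1 and Csad were called higher in ectoderm, and Espl1 and Aaas lower, which is close to the 45.7% of all tested genes called. Espl1 is separase, the protease that lets sister chromatids part, and its log2 difference was -0.41, -0.57, -0.44 and -0.34 in stage order. The call at E12.5 is near the threshold (adjusted p = 0.0482, edgeR) and was lost without 15 of the 16 libraries in turn. Its ectoderm levels ran from 119.5 to 164 CPM and its mesoderm levels from 150.2 to 212 CPM, lower in ectoderm in 8 of 8 batches (average log2 -0.44 ± 0.06, adjusted p = 6.35e-05, edgeR). Aaas, a nuclear pore protein, was lower by log2 0.29 ± 0.09 (adjusted p = 0.0256, edgeR). Csad, an enzyme of taurine synthesis, was higher in ectoderm at E9.5 (log2 0.80 ± 0.23, adjusted p = 0.0302, edgeR) and not called at later stages. The E9.5 call was lost with no filter (adjusted p = 0.0692) and without either ectoderm or the second mesoderm replicate of E9.5 (up to 0.190). Its call over the average was lost under upper quartile scaling, with no filter and without 11 of the 16 libraries in turn, and that of Aaas without 9 of the 16 libraries in turn. Mfsd5, Pfdn5, Myg1, Atp5g2 and Copz1 were not called. Myg1 was called lower in the fit blocked by embryo batch (log2 -0.25 ± 0.06).

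Gm9918, a predicted gene 647 kb beyond Hoxc13, was higher in ectoderm in 8 of 8 batches at low levels, 1.24 to 4.09 CPM in ectoderm against 0.369 to 2.27 CPM in mesoderm (log2 1.01 ± 0.23, adjusted p = 0.00366, edgeR). Its difference was called at E9.5 (log2 1.74 ± 0.49) and at no later stage, also in the fit blocked by embryo batch. The E9.5 call was lost without either ectoderm or the second mesoderm replicate of E9.5 (adjusted p up to 0.149). Its mesoderm level rose from E9.5 to E12.5 (log2 1.81 ± 0.48 SE, adjusted p = 0.0153, edgeR), a call lost without the second mesoderm replicate of E9.5 (adjusted p = 0.105) or the first of E12.5 (0.0702).

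With stage, 12.9% of the neighbours were called in ectoderm and 25.8% in mesoderm, near the shares of all tested genes. From E9.5 to E12.5 in ectoderm 4 fell (Espl1, Nfe2, 5730585A16Rik and Gm10830) and none rose, beside 7% and 9.1% of all tested genes (16.1% called in all). In mesoderm 4 rose (Csad, Gm9918, Calcoco1 and Nckap1l) and 4 fell (Espl1, Tarbp2, 5730585A16Rik and Smug1), beside 17% and 12.6% (29.6% in all). Over the same time 4 of 9 Hoxc genes rose and 4 fell in ectoderm, and 5 fell in mesoderm. The fall of Espl1 in ectoderm was lost without any 1 of the 16 libraries, that of 5730585A16Rik and of Gm10830 without any of the 4 ectoderm libraries of E9.5 and E12.5, and that of Nfe2 without the second ectoderm replicate of E9.5 or of E12.5. In mesoderm the fall of Espl1 was lost without the second replicate of E9.5 or either of E12.5, that of Tarbp2 without the first of E9.5 or either of E12.5, that of Smug1 without the first of E9.5 or the second of E12.5, and that of 5730585A16Rik without the first of E12.5. The falls of Espl1 and Smug1 in mesoderm were also lost with no filter. The rises of Csad and Nckap1l were called without each library in turn.

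The change of the layer difference from E9.5 to E12.5 was called for no neighbour (edgeR), with 2 at an unadjusted p under 0.05 (Nfe2 and Nckap1l), beside 3.12% of all tested genes called as rising and 5.15% as falling (8.27% in all). Among the 9 Hoxc genes 5 were called as rising, by log2 5.74 to 7.90. The count of 0 changed with the block. With the embryo batch as a block 6 neighbours were called, 2 as rising and 4 as falling, beside 25% of all tested genes, and with the replicate number as a block 5, beside 23.1%. In the embryo batch fit the layer difference rose for Mfsd5 (log2 0.73 ± 0.16) and Tarbp2 (0.87 ± 0.18), and fell for Csad (-0.72 ± 0.21), Prr13 (-0.94 ± 0.22), Calcoco1 (-0.89 ± 0.25) and Itga5 (-0.59 ± 0.15). DESeq2 called 1 neighbour, Nckap1l, as falling.

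The neighbours at the limits of the rule were Tns2, the first by its start (102100413), and Ppp1r1a, the last (103530279). Just inside the minimum of 10 counts were Gtsf2 with 11 and Amhr2 with 16, and just outside it was Gm21178 with 9. The 9 neighbours that were not tested held 11 to 43 counts each, and Gm28876 was the one with most. Soat2, an enzyme that esterifies cholesterol, had 3 counts in ectoderm and 28 in mesoderm, 21 of the latter at E9.5. Igfbp6, Amhr2, Gpr84, Gm27406, Rpl39-ps and Gtsf2 had 11 to 26 counts, too few to compare the layers. Reads of a gene that overlaps another cannot always be assigned, and 16 of the 40 neighbours overlap another gene, 8 of them one on the other strand. The sources used here do not say whether counting used strand.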

How the data were processed

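RNA of forelimb ectoderm and mesoderm was sequenced as poly(A) libraries with a stranded kit, per the labels' protocols. The authors deposited raw counts per gene, raw counts per exon bin and FPKM values on build mm10. The submitters' processing notes name Cufflinks 2.2.1, STAR 2.6.0c, bedtools 2.27.1 and cutadapt 1.16, while the counting tool and its strand setting are not given in the sources used here. FPKM were used to compare levels between genes only.

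Genes were tested with edgeR 4.0.16 in R 4.3.3 (quasi-likelihood, TMM scaling, filterByExpr by group, 1 mean for each of 8 groups over all 16 libraries), with Benjamini-Hochberg adjustment over the 15501 genes left of 28342 with any count. Exon bins were tested with diffSpliceDGE. DESeq2 1.42.0, upper quartile scaling, no filter, a fold threshold, a block for the replicate and leaving out each library were alternatives. The p-values measure the spread between replicates, which differ both in the batch of embryos and in the RNA kit. Counting intervals (exact, 95%) and the floor of 3 counts per group, 0.0687 to 0.115 CPM, cover counting error only. Total counts were 10005867 to 30438214 per library. The scripts were tested on simulated data.

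The labels say that a batch of embryos gave both layers of a replicate, which pairs the libraries. The main fit left this pairing out, so its SEs and p-values are unpaired. The fit blocked by embryo batch used it and called 65.9% of all tested genes over the average, against 45.7%. The difference between replicates correlated across genes between the layers of the same stage with r of 0.635, 0.732, 0.602 and 0.695 from E9.5 to E12.5, against 0.473 to 0.634 between stages.

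The neighbours and gene lists were chosen with earlier results of these data known. Genes were named if called in the average of stages with a log2 difference of at least 1, if nearest to the cluster (3 on each side), closest to the Hoxc pattern, highest in FPKM, with a called exon bin, or at the limits of the rule. The others named (Espl1, Pde1b, Csad, Aaas, Sp1, Cbx5 and Soat2 among them) were chosen after their values were seen. Of the marker lists, surface epithelium, limb mesenchyme, red cells, macrophages and platelets are given with the results, and endothelium was called lower in ectoderm for 8 of 8 genes (3.64 to 31.8 CPM against 362 to 665 CPM).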

Additional observations from a re-analysis of the deposited data

How the results depend on the processing

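No neighbour had the Hoxc pattern under any alternative, and no called neighbour changed direction. The cause of each change below was not tested. Calls are given as neighbours higher and lower in ectoderm, or at E12.5. Where no share of all tested genes stands beside a count below, the count is not a result about the neighbours. Under a fold threshold of 2 there were 0 and 4 over the average of stages, and in stage order 0 and 1, 0 and 3, 0 and 1, and 0 higher at the last, with 1 that fell in ectoderm, 1 that rose and 1 that fell in mesoderm, and 0 higher at the last 3 stages. Under upper quartile scaling 1 was higher at E11.5, 1 at E12.5 and 1 at the last 3 stages. Of all 15501 tested genes, 863 were higher at the last 3 stages under the fold threshold. Upper quartile scaling gave 1378, against 1470 in the main fit. With no filter 2 fell in mesoderm and 1 had a falling layer difference, as 1 had under DESeq2.

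With the replicate number as a replicate block there were 14 higher over the average, 8 and 10 at E10.5, 5 higher at E11.5, 7 higher at E12.5, 2 that rose and 9 that fell in ectoderm, 7 and 9 in mesoderm, and 2 rising and 3 falling layer differences. For the layer difference this block called 23.1% of all tested genes, against 8.27% in the main fit. With the embryo batch as a replicate block there were 14 higher over the average, 10 lower at E10.5, 5 and 7 at E11.5, 8 higher at E12.5, and 2 rising and 4 falling layer differences. In the same order this block called 65.9%, 48.6%, 40%, 45.7% and 25% of all tested genes. The main fit called 45.7%, 26.4%, 20.6%, 26.4% and 8.27%. Both blocks gave 3 higher at the last 3 stages. Of all 15501 tested genes, 2273 (replicate number) and 2356 (embryo batch) were higher there, against 1470 in the main fit.

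Leaving out 1 library gave 0 to 6 higher and 2 to 4 lower at E9.5, 1 to 4 higher at E10.5, 0 to 2 higher and 2 to 5 lower at E11.5, 1 to 2 higher at E12.5, 0 to 4 that fell in ectoderm, 2 to 4 that rose and 1 to 5 that fell in mesoderm, and 0 to 2 higher at the last 3 stages. A group then holds 1 library, which is assumed to vary like the others. Over all genes the exon bin test called 434 genes with the embryo batch as a block, against 196. Few counts limit 5730585A16Rik, Gm10830 and the 9 neighbours not tested.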
